A study of Mus musculus with 20 samples.

Results

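The fibrillar and stromal collagens followed here are 9 genes, Col1a1, Col1a2, Col3a1, Col5a1, Col5a2, Col6a1, Col6a2, Col6a3 and Col15a1, and the question is whether they rose in the regrowing mouse prostate as they did in the regressing one. Members were all probe sets whose single gene symbol on the array was one of these names, which gave 15 probe sets among 6913 tested. All 9 genes were tested, out of 5372 genes with a single symbol. Whole prostates of C57/B6 mice 10 to 12 weeks old were profiled with Affymetrix MG-U74A arrays, 1 array for each of 5 mice in 4 groups. These comprised sham-treated mice, mice castrated for 3 days, mice castrated for 14 days (the regressed gland), and mice castrated for 14 days, then given a 15 mg testosterone pellet and killed 3 days later (the regrowing gland, called testosterone-treated below). The testosterone-treated mice were therefore killed 3 days later after castration than the 14-day castrates. No group was castrated and given an empty pellet or left untreated to that later time. Testosterone, the pellet and the 3 further days thus cannot be told apart. Each array pooled all cell types of the gland, so fewer cells of a type and less RNA per cell cannot be told apart.

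Collagens are extracellular matrix proteins built from chains that wind around each other into a stiff helix. Type I and type III collagens form the thick fibrils of the stroma, type V sits inside those fibrils and controls their diameter, type VI forms beaded microfibrils around cells, and type XV lies next to basement membranes. In the prostate the stroma around the glands is made of fibroblasts and smooth muscle, both of which can make these proteins. Androgen withdrawal shrinks the glandular epithelium, and androgen given back makes it grow again.

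Promoters of 3 member genes are shown because these genes took different courses: Col1a2 and Col3a1 were higher after castration and higher again after testosterone, whereas Col6a1 was higher after castration and its further difference after testosterone did not pass the test. Each line gives the 250 bases before a transcription start from RefSeq (build GRCm38.p6, strand of the gene). They lie at chr6:4505368-4505617 on the plus strand for Col1a2, chr1:45311288-45311537 on the plus strand for Col3a1 and chr10:76726045-76726294 on the minus strand for Col6a1. Capitals mark any of 4 short motifs searched on both strands: the CCAAT box (CCAAT), the GC box (GGGCGG), the Smad-binding core (CAGAC) and the androgen receptor half-site (AGAACA).
Col1a2 promoter: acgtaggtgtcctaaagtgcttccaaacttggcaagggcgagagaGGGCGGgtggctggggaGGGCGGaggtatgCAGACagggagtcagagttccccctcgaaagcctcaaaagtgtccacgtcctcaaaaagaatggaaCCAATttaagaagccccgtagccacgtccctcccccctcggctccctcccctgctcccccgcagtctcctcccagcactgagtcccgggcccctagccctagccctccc
Col3a1 promoter: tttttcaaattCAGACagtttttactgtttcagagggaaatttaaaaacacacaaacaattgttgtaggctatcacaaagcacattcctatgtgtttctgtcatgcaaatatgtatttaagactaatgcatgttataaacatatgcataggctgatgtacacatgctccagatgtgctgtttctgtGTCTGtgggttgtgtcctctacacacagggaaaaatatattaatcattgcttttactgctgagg
Col6a1 promoter: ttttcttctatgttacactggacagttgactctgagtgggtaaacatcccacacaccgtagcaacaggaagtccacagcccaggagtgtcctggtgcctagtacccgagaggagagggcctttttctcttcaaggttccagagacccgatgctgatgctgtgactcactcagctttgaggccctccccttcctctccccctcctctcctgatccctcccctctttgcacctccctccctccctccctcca
The Col1a2 window held 1 CCAAT box, 2 GC boxes and 1 Smad-binding core. The Col3a1 window held 2 Smad-binding cores, and the Col6a1 window held none of the 4 motifs. The table held 8 windows for 7 of the member genes, 2 of them for Col6a2. Counting a gene when any of its windows matched, 5 of 7 genes held a Smad-binding core, 3 a GC box, 1 a CCAAT box and 0 the androgen receptor half-site. Over 32851 single mouse promoter windows of the same length, a different unit from genes, the shares were 42.2%, 32.7%, 33.8% and 16.1% in that order. These short strings are common, and a match is a description of the letters, not of a bound factor. Col1a1 and Col5a2 are named only.

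Values are signals on a linear scale, 1 per probe set and array, and changes are differences of log2 of the signal plus 12.7. A change was called when its adjusted p in limma, over all probe sets tested in that comparison, was under 0.05. These p-values set a difference against the spread between mice within groups. That spread is pooled over all 4 groups and adjusted with information from the other probe sets, so it is not that of the 2 groups compared. A probe set was tested when it exceeded 190.8, the median signal, on at least 5 of 20 arrays, and the probe set with the highest mean stands for its gene. The tissue check was as the labels gave: the prostate secretory protein gene Pbsn had signals of 7814 to 10969 in testosterone-treated mice, 3786 to 5992 in 14-day castrates, 14798 to 15595 in 3-day castrates and 14180 to 18101 in sham mice. Vim, a general mesenchymal marker, did not pass the filter on these arrays, with no signal above 171. On 4 arrays the control transcript Gapdh gave a high ratio of its 3′ to its 5′ probe set, a sign of shortened RNA or cDNA: the log2 ratio was 4.54 and 3.93 on testosterone-treated replicates 2 and 5 and 2.05 and 1.82 on 14-day castrate replicates 4 and 5, against -0.53 to -0.08 on the other 16. Calls lost without those 4 arrays are given beside the gene, and RNA quality as a source of the other differences was not tested. The numbers in the titles of the arrays run group by group, so an unrecorded batch cannot be told apart from treatment.

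Collagen transcripts rose in the regrowing gland. In testosterone-treated mice against 14-day castrates, 8 of 9 genes were higher and 0 were lower, where 18.7% of all genes tested were higher and 27.8% lower. The same 8 genes had no overlap between the groups' values, a state that 13.1% of all genes reached in the higher direction. The median log2 change of the 9 was 1.20, against -0.11 over all genes. In 14-day castrates against sham mice, 3 of 9 genes were higher, Col1a2, Col3a1 and Col6a1, and 0 were lower, where 30.4% of all genes were higher and 23.8% lower (median log2 change 0.21, against 0.04 over all genes). The members' share there is near the background, and 2 of the 3, Col1a2 and Col3a1, had no overlap between groups (20.7% of all genes). At 3 days of castration, 6 of 9 genes were higher than in sham mice and 0 were lower (10.5% and 4.65% of all genes), with a median log2 change of 0.49 against 0.04 over all genes. Of these, 4 had no overlap with sham mice (9.16% of all genes). Leaving out the 4 arrays with a high Gapdh ratio, 6 of 9 genes were higher in testosterone-treated mice than in 14-day castrates.

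**Figure D1:**
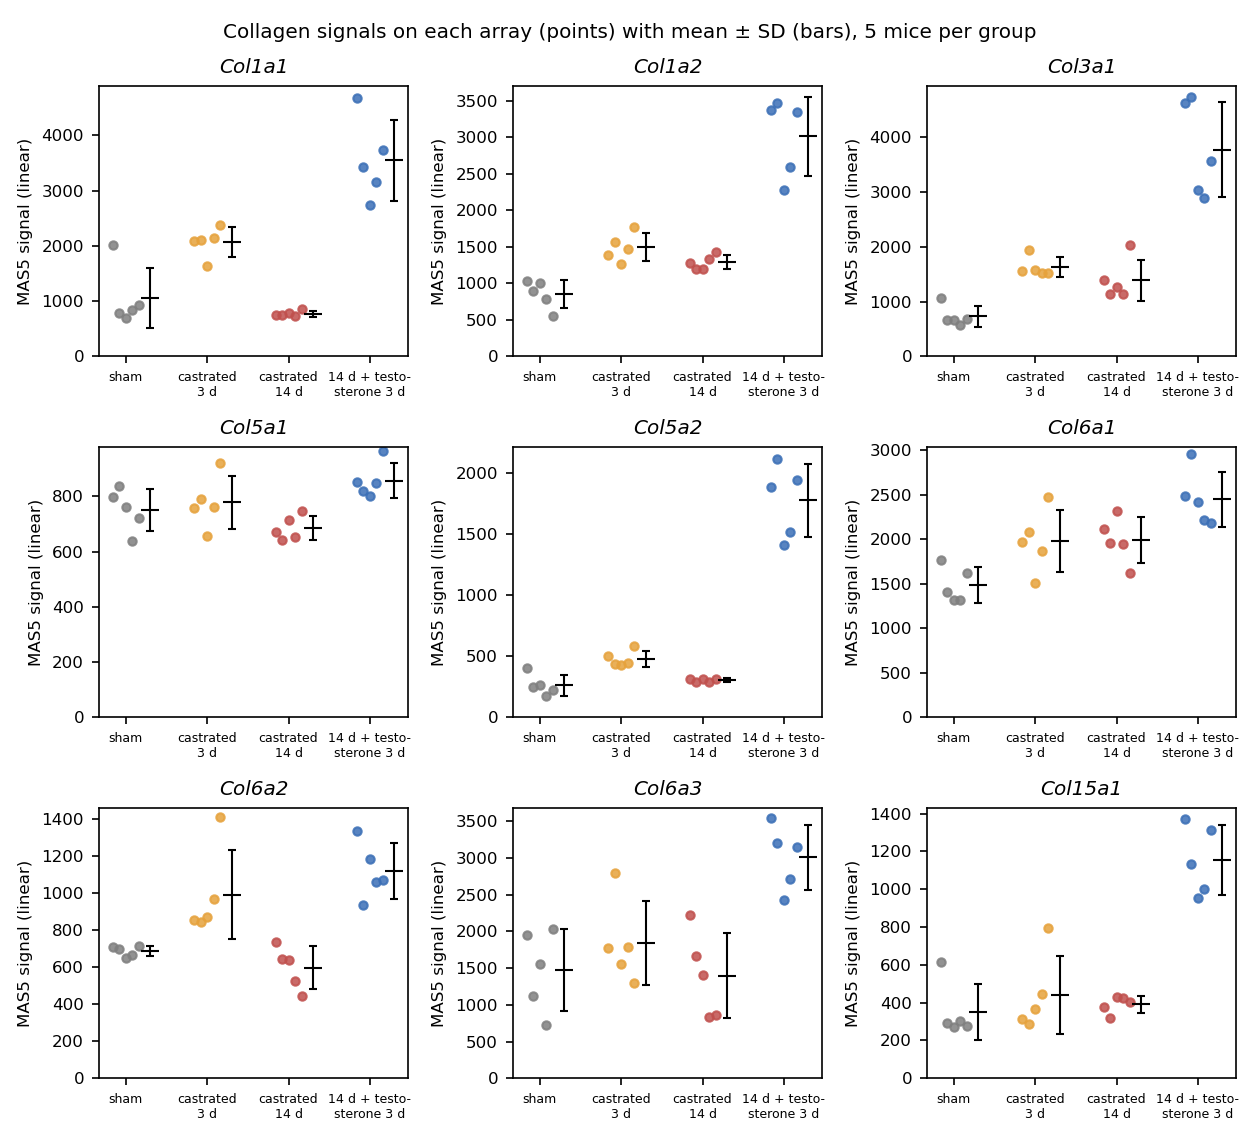
Signal (linear scale) of the probe set standing for each of the 9 collagen genes, with 1 point per array and bars for mean ± SD over 5 mice. The groups run from sham through 3 and 14 days of castration to testosterone. In 8 panels all testosterone-treated arrays lie above all 14-day castrate arrays, and in the Col6a1 panel the groups overlap.

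Type I collagen was measured through both of its chains. Col1a1 encodes the alpha-1 chain (11:94936224-94953042), and its signal was 4683, 3425, 2746, 3159.7 and 3732 in testosterone-treated mice, against 739, 745, 776, 725 and 848 in 14-day castrates. In 3-day castrates it was 2089, 2106, 1633, 2141 and 2378, against 2010.5, 786, 697, 843 and 926 in sham mice. The regrowing glands were all above every regressed gland, and the 3-day castrates were above all sham mice but 1, sham replicate 1. Col1a1 rose 4.5-fold with testosterone (log2 change 2.17 ± 0.21 SE, adjusted p = 1.05e-07). It was 2.1-fold higher at 3 days of castration than in sham mice (log2 1.07 ± 0.21, adjusted p = 0.00185), and between 3 and 14 days it fell by 1.41 on the log2 scale (± 0.21, adjusted p = 4.15e-05). At 14 days it did not differ from sham mice beyond the spread (log2 -0.34 ± 0.21, adjusted p = 0.182). Col1a1 thus had its lowest mean, 767 ± 49.4, in the regressed gland and its highest, 3549 ± 729.8, in the regrowing one (SD, n = 5 each), and sham and 14-day castrates were neighbours that did not differ.

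A second Col1a1 probe set, 103709_at, moved less. It averaged 1362 ± 207 in testosterone-treated mice and 634 ± 63.1 in 14-day castrates (log2 1.08 ± 0.14, adjusted p = 3.41e-06). It was called lower at 14 days than in sham mice (634 ± 63.1 against 835 ± 183, log2 -0.37 ± 0.14, adjusted p = 0.0296) and was not called at 3 days (916 ± 125 in castrates, log2 0.15 ± 0.14, adjusted p = 0.537). The rise of Col1a1 at 3 days therefore rests on 1 of its 2 probe sets, while the rise with testosterone was called on both.

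Col1a2 encodes the alpha-2 chain (6:4505618-4541543). Its signal was 3380.5, 3471, 2277, 2597 and 3347 in testosterone-treated mice, against 1284, 1204, 1202, 1335 and 1425 in 14-day castrates. It was 1390.5, 1574, 1265, 1474 and 1778 in 3-day castrates and 1034, 892, 1004, 781 and 559 in sham mice. The regrowing glands were highest without overlap, both castrated groups were above all sham mice, and the 2 castrated groups overlapped. Col1a2 rose 2.3-fold with testosterone (log2 1.20 ± 0.15, adjusted p = 3.41e-06), and was 1.53-fold higher than sham at 14 days (log2 0.62 ± 0.15, adjusted p = 0.00219) and 1.77-fold higher at 3 days (log2 0.82 ± 0.15, adjusted p = 0.00124). Its other probe set, 161156_r_at, went against it: 1154 ± 83.7 in testosterone-treated mice and 1209.8 ± 56.3 in 14-day castrates (log2 -0.07 ± 0.09, adjusted p = 0.562). That probe set was also lower in 14-day castrates than in sham mice, where it averaged 1458 ± 194 (log2 -0.26 ± 0.09, adjusted p = 0.0243), so every Col1a2 rise rests on 1 of 2 probe sets. Which transcripts the 2 probe sets detect was not tested.

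Col3a1 encodes the chain of type III collagen, the partner of type I in soft, distensible tissue (1:45311538-45349706). Its signal was 4630.1, 4727, 3038, 2884 and 3573 in testosterone-treated mice, against 1392, 1135, 1259.6, 1133 and 2034 in 14-day castrates. It was 1552, 1948, 1579, 1522 and 1528 in 3-day castrates and 1074, 659, 658, 580.4 and 684 in sham mice. As for Col1a2, the groups formed 3 steps, with regrowing glands on top, both castrated groups together in the middle and sham mice below. The rise was 2.71-fold with testosterone (log2 1.44 ± 0.18, adjusted p = 3.41e-06), 1.89-fold at 14 days against sham (log2 0.91 ± 0.18, adjusted p = 0.000345) and 2.25-fold at 3 days against sham (log2 1.17 ± 0.18, adjusted p = 0.000288). Between 14 and 3 days the change was -0.25 ± 0.18 (adjusted p = 0.284). Col3a1 in testosterone-treated mice was 5.1-fold that in sham mice (log2 2.35 ± 0.18, adjusted p = 7.68e-09). A second probe set, 161984_f_at, also rose with testosterone (log2 1.19, adjusted p = 6.42e-06). The third, 102990_at, was above the filter on 6 arrays, 5 of them testosterone-treated, so its change was bound up with its selection.

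**Figure D2:**
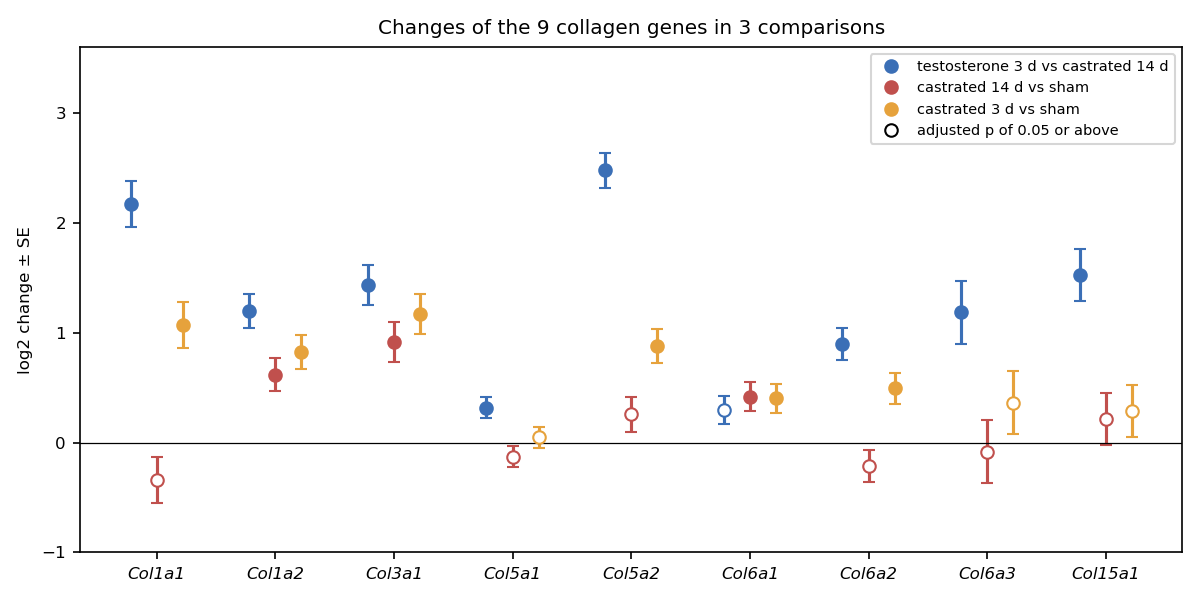
Log2 change ± SE of each collagen gene for testosterone 3 days against castrated 14 days (blue), castrated 14 days against sham (red) and castrated 3 days against sham (orange). Filled points have an adjusted p under 0.05. Blue points reach 2.48 for Col5a2 and 2.17 for Col1a1, and 3 of the 9 red points are filled.

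Type V collagen, the minor fibrillar partner that limits fibril width, split between its chains. Col5a2 encodes the alpha-2 chain (1:45374331-45503282), and its signal was 1885, 2115, 1411, 1514 and 1945 in testosterone-treated mice, against 313, 291, 317, 287 and 314 in 14-day castrates. It was 499.5, 439.7, 429.5, 440.3 and 586 in 3-day castrates and 402, 244, 262, 178 and 223 in sham mice. The regrowing glands stood far above every other array, and the 3-day castrates lay above both the 14-day castrates and the sham mice without overlap. Its rise with testosterone, 5.57-fold, had the largest log2 change among the probe sets standing for the 9 genes (2.48 ± 0.16, adjusted p = 5.96e-10). At 3 days it was 1.84-fold higher than sham (log2 0.88 ± 0.16, adjusted p = 0.00102), and between 3 and 14 days it fell by 0.62 on the log2 scale (± 0.16, adjusted p = 0.00444). At 14 days it did not pass against sham (log2 0.26 ± 0.16, adjusted p = 0.185), although without sham replicate 1, the highest sham value, it did (log2 0.42, adjusted p = 0.0124).

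Col5a1 encodes the alpha-1 chain (2:27886381-28039510) and changed little. Its signal was 851, 820.2, 800.5, 847 and 962 in testosterone-treated mice, against 669, 642, 713, 651 and 747 in 14-day castrates. The groups did not overlap, at a log2 change of 0.32 ± 0.09 or 1.25-fold (adjusted p = 0.00958), and the call was lost without the 4 arrays of high Gapdh ratio (log2 0.30, adjusted p = 0.06). The 3-day castrates averaged 778 ± 94.8 and the sham mice 751 ± 76.6, with no call between them (adjusted p = 0.799). A second Col5a1 probe set, 101080_at, exceeded the filter on 9 arrays, too few without the 5 testosterone-treated ones, so its change was bound up with its selection. It averaged 293 ± 76.2 in testosterone-treated mice and 101 ± 48.2 in 14-day castrates (log2 1.56 ± 0.35).

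Type VI collagen is assembled from alpha-1, alpha-2 and alpha-3 chains, encoded by Col6a1, Col6a2 and Col6a3. Col6a1 (10:76708792-76726044) had signals of 2482, 2954, 2416, 2212 and 2185 in testosterone-treated mice, against 2112, 1962, 2320.1, 1950.0 and 1620.5 in 14-day castrates. The groups overlapped and the change was not called (log2 0.30 ± 0.13, adjusted p = 0.0702), although it was without 14-day castrate replicate 3 (0.35, adjusted p = 0.043) and once arrays were centred on their medians (0.49, adjusted p = 0.0047). Col6a1 differed earlier in the course: it averaged 1993 ± 256 in 14-day castrates and 1489 ± 202 in sham mice (log2 0.42 ± 0.13, adjusted p = 0.0112), and 1983 ± 350.1 in 3-day castrates (log2 0.40 against sham, adjusted p = 0.0439), with overlap in both. The 3-day call was lost in 12 of the 20 fits that left out 1 array (adjusted p up to 0.131). Its dimmer probe set 162459_f_at averaged 415 ± 55.6 in testosterone-treated mice, 332 ± 35.8 in 14-day castrates, 239 ± 24.7 in 3-day castrates and 123 ± 45.6 in sham mice. That probe set was 2.67-fold higher in 14-day castrates than in sham mice (log2 1.42 ± 0.18, adjusted p = 2.91e-06) and was likewise not called with testosterone (log2 0.31 ± 0.18, adjusted p = 0.18).

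Col6a2 (10:76595756-76623630) had signals of 1336, 935, 1186, 1058 and 1071 in testosterone-treated mice, against 738, 644, 639.8, 526 and 442 in 14-day castrates. In 3-day castrates they were 856, 846, 872, 966 and 1411, against 707, 699, 649, 665 and 713 in sham mice. The 3-day castrates lay above all sham mice and the regrowing glands above all regressed ones. Col6a2 rose 1.86-fold with testosterone (log2 0.90 ± 0.14, adjusted p = 4.82e-05) and was 1.41-fold higher at 3 days than in sham (log2 0.49 ± 0.14, adjusted p = 0.0268). Between 3 and 14 days it fell by 0.71 on the log2 scale (± 0.14, adjusted p = 0.000816). The 3-day call against sham was lost without 3-day castrate replicate 5, the highest (0.36, adjusted p = 0.0779), or without sham replicate 3 (0.47, adjusted p = 0.0576).

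Col6a3 (1:90766860-90844001) varied widely between mice within groups. Its signal was 3539, 3207, 2431, 2710.0 and 3146 in testosterone-treated mice, against 2228, 1663, 1404, 836 and 862 in 14-day castrates. In 3-day castrates it ran from 1293 to 2791 around a mean of 1839.7 ± 569, and in sham mice from 723 to 2034 around 1478 ± 555. The regrowing glands were above all regressed ones, and the other groups overlapped widely. It was 2.27-fold higher with testosterone (log2 1.19 ± 0.29, adjusted p = 0.00229). The lowest 14-day castrates were replicates 4 and 5, both with a high Gapdh ratio, and without the 4 such arrays the change was 0.72 and no longer called (adjusted p = 0.104).

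Col15a1 (4:47207655-47313167) encodes a collagen that carries sugar chains and joins basement membranes to the fibrils beside them. Its signal was 1371, 1131, 956, 1001 and 1315 in testosterone-treated mice, against 375, 317, 432, 427 and 404 in 14-day castrates. It was 315, 288, 365, 444 and 795 in 3-day castrates and 613, 294, 271, 305 and 277 in sham mice. The regrowing glands stood apart, and the other 3 groups overlapped. The rise with testosterone was 2.88-fold (log2 1.53 ± 0.24, adjusted p = 3.23e-05), and neither castrated group was called against sham (adjusted p = 0.466 at 3 days and 0.472 at 14 days).

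**Figure D3:**
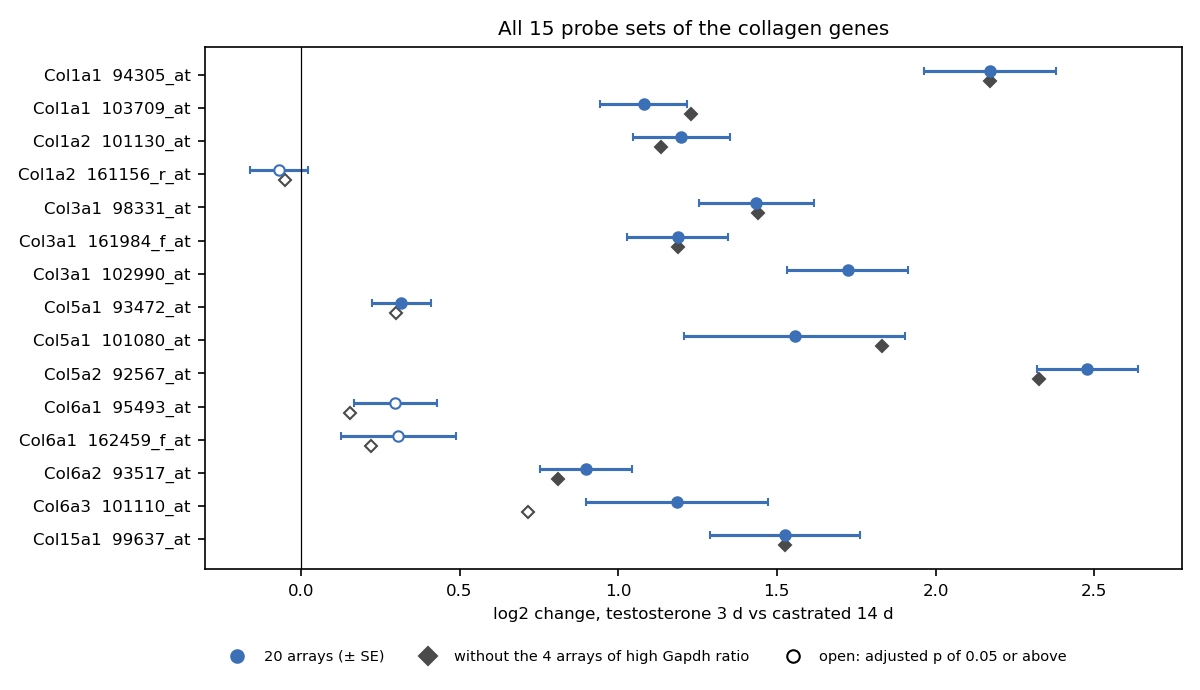
Log2 change from castrated 14 days to testosterone 3 days for all 15 probe sets of the 9 genes (circles ± SE, 20 arrays) and with the 4 arrays of high Gapdh ratio left out (diamonds); open symbols have an adjusted p of 0.05 or above. Probe set 102990_at has no diamond because it did not pass the filter without those arrays, and 161156_r_at lies at -0.07.

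The rise in regrowth was then set directly against the change in regression. The change with testosterone minus the change from sham to 14 days of castration was called above 0 for 6 of 9 genes and called below 0 for 0 (20.2% and 28.6% of all genes). Both of these changes use the 14-day castrates, with opposite sign, so a shift of that group alone moves the difference by 2 times that shift. The difference was 2.51 ± 0.36 for Col1a1 (adjusted p = 1.18e-05), 2.22 ± 0.28 for Col5a2 (adjusted p = 1.89e-06), 1.32 ± 0.41 for Col15a1 (adjusted p = 0.0124) and 1.11 ± 0.25 for Col6a2 (adjusted p = 0.00109). For Col6a3 it was 1.27 ± 0.50 (adjusted p = 0.0427) and for Col5a1 0.44 ± 0.16 (adjusted p = 0.0303). It did not pass for Col1a2 (0.58 ± 0.26, adjusted p = 0.0777), Col3a1 (0.52 ± 0.32, adjusted p = 0.188) or Col6a1 (-0.12, adjusted p = 0.69; its dimmer probe set 162459_f_at was called below 0, at -1.11 ± 0.31, adjusted p = 0.00688), the 3 genes that were already higher in the regressed gland. In simulated data 4.48% of added log2 changes of 0.5 were called in this contrast. That simulation altered far fewer probe sets than were called in the data, which makes its threshold stricter. Its share therefore does not carry over to these data. The 3 genes that did not pass are still no sign of an equal rise, because a difference that is not called is not shown to be absent. Leaving out 1 array at a time, the call was lost in 10 of 20 fits for Col6a3 and in 4 for Col5a1. It was gained for Col3a1 without 14-day castrate replicate 5 (0.81, adjusted p = 0.0358) and for Col1a2 without sham replicate 5 (0.72, adjusted p = 0.0117) or testosterone-treated replicate 3 (0.68, adjusted p = 0.0359). Leaving out the 4 arrays with a high Gapdh ratio, the difference passed for 3 genes, Col1a1, Col5a2 and Col6a2, and did not for Col5a1 (0.45, adjusted p = 0.0859), Col15a1 (1.38, adjusted p = 0.0558) and Col6a3 (0.39, adjusted p = 0.601).

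Setting testosterone against the first 3 days of castration compares steps of equal length that share no array. Here 3 genes rose more in regrowth, Col5a2 by 1.60 ± 0.22 (adjusted p = 1.13e-05), Col15a1 by 1.24 ± 0.33 (adjusted p = 0.00561) and Col1a1 by 1.10 ± 0.30 (adjusted p = 0.00532), and 0 rose less (16.6% and 27.1% of all genes). The dimmer Col6a1 probe set 162459_f_at rose less here too (-0.65 ± 0.26, adjusted p = 0.0479). For Col3a1 the difference was 0.27 (adjusted p = 0.433) and for Col1a2 0.38 (adjusted p = 0.173), though Col1a2 passed without sham replicate 5 (0.52, adjusted p = 0.0285). Without 3-day castrate replicate 5 the count was 5, with Col5a1 and Col6a2 added, and Col6a3 passed without sham replicate 4 (1.06, adjusted p = 0.028) or 14-day castrate replicate 1 (1.02, adjusted p = 0.0447). The array medians were lower by 0.195 on the log2 scale in testosterone-treated mice than in 14-day castrates, and once arrays were centred on their medians this count was 6. Between 14 and 3 days of castration, 3 genes fell, Col1a1, Col5a2 and Col6a2, each with no overlap, and 0 rose (19.9% and 21.4% of all genes, and 16.3% with no overlap downward). In testosterone-treated mice against sham mice, 8 of 9 genes were higher, all but Col5a1, and 0 were lower (24.6% and 28.6% of all genes). Their log2 changes had a median of 1.74 against -0.07 over all genes, and the highest was 2.73 for Col5a2 (6.65-fold, adjusted p = 1.41e-10). Of the 15 probe sets, 13 were higher and 1 lower. The lower one was 161156_r_at of Col1a2 (1154 in testosterone-treated and 1458 in sham mice, log2 -0.33), so the 2 probe sets of Col1a2 were called in opposite directions. The second Col5a1 probe set, 101080_at, was higher (293 against 122), a change bound up with its selection.

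Chains of the same or of neighbouring collagens were compared on the same array as a log2 ratio of the signals, each with 12.7 added. The level of such a ratio depends on the probe sets, so only its difference between groups is read. In all, 12 exact permutation tests were made (two-sided, smallest possible p of 0.00794 with 5 against 5 arrays), adjusted over the 12, and 10 passed. Col1a1 gained on Col1a2 by 0.97 in testosterone-treated mice against 14-day castrates and lost 0.96 to it in 14-day castrates against sham mice (change -0.96; adjusted p = 0.0119 each, exact permutation test). Col5a2 gained on Col5a1 with testosterone, with a change of the Col5a1 to Col5a2 log2 ratio of -2.16 (adjusted p = 0.0119, exact permutation test), while in 14-day castrates against sham mice the change of -0.38 did not pass (adjusted p = 0.0519, exact permutation test). The Col3a1 to Col1a1 ratio was higher by 1.25 in 14-day castrates than in sham mice and changed by -0.74 with testosterone (adjusted p = 0.0119 each, exact permutation test).

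Within type VI, the Col6a1 to Col6a2 ratio was higher by 0.63 in 14-day castrates than in sham mice (adjusted p = 0.0119, exact permutation test) and changed by -0.60 with testosterone (adjusted p = 0.0286, exact permutation test). The Col6a3 to Col6a1 ratio was higher by 0.89 with testosterone (adjusted p = 0.0212, exact permutation test) and changed by -0.50 in 14-day castrates against sham mice (adjusted p = 0.151, exact permutation test). The Col15a1 to Col1a1 ratio changed by -0.64 with testosterone and was higher by 0.55 in 14-day castrates than in sham mice (adjusted p = 0.0119 each, exact permutation test). Chains that end up in one protein thus moved by unequal amounts on these probe sets. Because Col1a1, Col1a2, Col5a1 and Col6a1 each have a second probe set that behaves otherwise, these ratios hold only for the probe sets shown. For Col1a1 the second probe set averaged 1362 in testosterone-treated mice and 634 in 14-day castrates, against 3549 and 767 for the one used. Its log2 change with testosterone, given above, was smaller than those of Col1a2, Col3a1 and Col15a1 on the probe sets used here. With it, the Col1a1 ratios would therefore change with testosterone in the direction opposite to that shown. In 14-day castrates against sham mice they would keep their direction. Ratios with the second probe sets were not tested. Leaving out the 4 arrays with a high Gapdh ratio, 0 of the 12 tests passed, a design in which 3 against 3 arrays cannot pass.

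**Figure D4:**
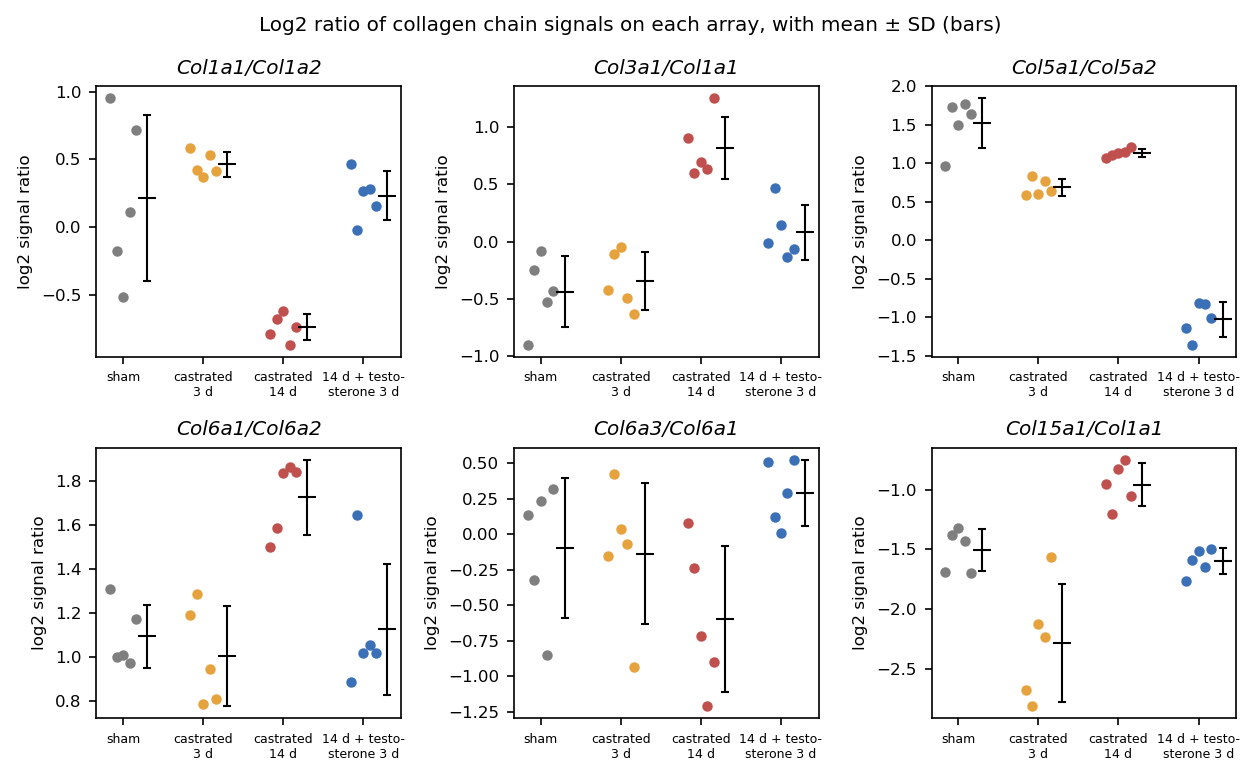
Log2 ratio of the signals of pairs of collagen genes on each array (points), with mean ± SD over 5 mice (bars), for sham, castrated 3 days, castrated 14 days and testosterone 3 days. The 14-day castrates lie apart from the testosterone-treated mice in the Col1a1/Col1a2, Col3a1/Col1a1, Col5a1/Col5a2 and Col15a1/Col1a1 panels.

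Genes that fold, trim and cross-link procollagen rose in part with the collagens. Of 14 tested, 7 were higher and 0 lower in testosterone-treated mice than in 14-day castrates, with a median log2 change of 0.36. For this list and those below, the shares over all genes with testosterone were 18.7% higher and 27.8% lower. In 14-day castrates against sham mice they were 30.4% higher and 23.8% lower. Ppib, a proline isomerase of the endoplasmic reticulum, averaged 6436 ± 629.8 in testosterone-treated mice and 3072 ± 463 in 14-day castrates (log2 1.07, adjusted p = 9.51e-07). Serpinh1, the collagen-specific chaperone, averaged 2360.0 ± 421 in testosterone-treated mice and 1242 ± 136 in 14-day castrates (log2 0.91, adjusted p = 0.0089). Sparc, a collagen-binding matrix protein, rose by a log2 of 0.76 (adjusted p = 0.00363), and P4hb, a subunit of prolyl hydroxylase, by 0.73 (adjusted p = 0.0122). In 14-day castrates against sham mice, 3 of the 14 were higher and 6 lower. P4hb (log2 -1.66, adjusted p = 5.27e-06), Mia3, which helps load collagen into transport vesicles (-1.29), P4ha2, a prolyl hydroxylase catalytic subunit (-0.98), and Ppib (-0.77) were lower, and Sparc was higher (0.96, adjusted p = 0.00038). Several of these enzymes also serve other secreted proteins. The cross-linking genes Lox and Loxl1 did not pass the filter.

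Other collagens did not move as a block. Of 10 tested, 4 were higher and 2 lower with testosterone, and 2 were higher and 4 lower in 14-day castrates than in sham mice. The basement membrane chains Col4a1 (log2 0.63, adjusted p = 0.000421) and Col4a2 (0.51, adjusted p = 0.00234) rose with testosterone. Col14a1, a collagen that binds the surface of fibrils, fell by 1.21 with testosterone and was higher by 1.77 at 14 days against sham, and it passed the filter only through the 14-day castrates, so these changes were bound up with its selection. Col17a1, a collagen of epithelial anchoring junctions, fell by 1.01 and was higher by 1.86 in the same comparisons. Leaving out the 4 arrays with a high Gapdh ratio, 2 of the 10 were higher and 2 lower with testosterone.

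Most tested genes whose proteins sit on or bind to collagen fibrils were lower with testosterone where the fibrillar collagens were higher. In 14-day castrates against sham mice neither set had a gene called lower. The collagens there had only 3 of 9 genes higher, near the share of all genes, and 2 of their 15 probe sets lower. In testosterone-treated mice against 14-day castrates, 8 of 13 fibril-associated genes were lower and 1 higher (median log2 -0.73). In 14-day castrates against sham mice, 11 were higher and 0 lower (median 1.04). Compared with sham mice, testosterone-treated mice still had 7 of the 13 higher and 2 lower (24.6% and 28.6% of all genes, median 0.36). Lum, a small proteoglycan that regulates fibril spacing, averaged 1406 ± 247 in testosterone-treated mice and 3789 ± 327 in 14-day castrates, and 715 ± 204 in sham mice (log2 -1.43 with testosterone and 2.43 at 14 days against sham). Fbln1 (-1.42), Tnxb (-1.32) and Tgfbi (-1.24) also fell with testosterone, and Tgfbi (1.71), Dpt (1.67) and Matn2 (1.46) were higher at 14 days than in sham mice. The 1 gene higher with testosterone was Bgn, the proteoglycan biglycan (log2 0.37, adjusted p = 0.0482). With arrays centred on their medians the count was 7 lower and 2 higher, and leaving out the 4 arrays with a high Gapdh ratio it was 7 lower and 0 higher.

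Most tested genes of matrix-degrading enzymes and their inhibitors were higher in the regressed gland. Of 22 listed genes on the array, 10 were tested. The collagenases Mmp8 and Mmp13 and the gelatinases Mmp2 and Mmp9 did not pass the filter. Neither did Mmp3, Mmp10, Fap, Mrc2 and Plau, among others. In 14-day castrates against sham mice 8 of 10 tested were higher and 0 lower (median log2 0.85), among them the plasminogen activator Plat (1.65), the macrophage elastase Mmp12 (1.25) and the inhibitors Timp3 (1.22) and Timp1 (1.14). With testosterone 4 were lower and 0 higher: Plat (-0.90), Timp3 (-0.86), the lysosomal protease Ctsl (-0.69) and the protease inhibitor Reck (-0.54). With arrays centred on their medians these counts were 3 lower and 1 higher. Of 12 listed collagen receptors, 3 were tested, and both discoidin domain receptors, Ddr2 (-1.41) and Ddr1 (-0.58), fell with testosterone. Ddr2 was higher at 14 days than in sham mice (0.63).

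TGF-beta is known to drive collagen transcription in fibroblasts, and PDGF to act on the same cells. Of 16 tested genes of these signals and their regulators, among them the fibroblast marker Pdgfra, 7 were lower and 1 higher with testosterone (median log2 -0.40), against 7 higher and 2 lower in 14-day castrates against sham mice (median 0.39). Of all genes, 27.8% were lower and 18.7% higher with testosterone, and 30.4% were higher and 23.8% lower at 14 days. The list mixes signals with their inhibitors, so its counts do not measure the activity of TGF-beta. Nbl1 (-1.55), the repressor Tgif1 (-1.47), the target gene Ccn2 (-0.92, adjusted p = 0.0187) and the latent TGF-beta binding protein Ltbp4 (-0.75) fell with testosterone. Fst, an activin antagonist, rose by 0.75 (adjusted p = 0.00608). In 14-day castrates Tgif1 (1.18), Smad2 (0.77) and Nbl1 (0.74) were higher and Ltbp3 was lower (-1.24) than in sham mice. Tgfb1 and the receptors Tgfbr1 and Tgfbr2 did not pass the filter. With arrays centred on their medians, 4 were lower and 3 higher with testosterone, and leaving out the 4 arrays with a high Gapdh ratio 6 were lower and 0 higher.

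**Figure D5:**
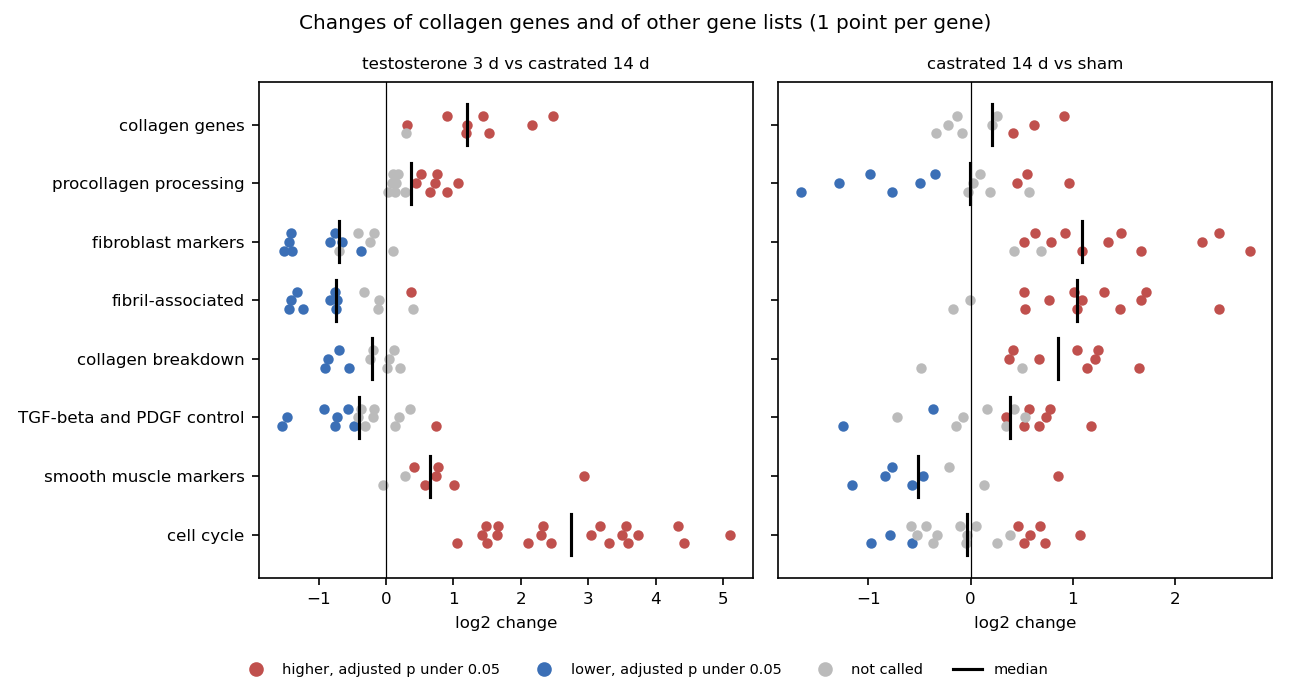
Log2 change of each gene (points) in the collagen group and 7 other gene lists, for testosterone 3 days against castrated 14 days (left) and castrated 14 days against sham (right); black bars are list medians. In the left panel the medians of the collagen genes (1.20), smooth muscle markers (0.66) and cell cycle genes (2.74, of which 8 of 20 passed the filter only through the testosterone-treated arrays) lie above 0 and that of the fibroblast markers (-0.70) below it.

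Markers of the cells that could make these collagens moved in different directions, and their part in the collagen changes was not tested. Of 13 fibroblast markers tested, 8 were lower and 0 higher with testosterone (median log2 -0.70), and 11 were higher and 0 lower in 14-day castrates than in sham mice (median 1.09). Compared with sham mice, testosterone-treated mice still had 9 of these markers higher and 1 lower (median 0.76), where 24.6% of all genes were higher and 28.6% lower. Their summed signal ran from 15332 to 18189 in testosterone-treated mice, from 27229 to 32733 in 14-day castrates, from 19291 to 25634 in 3-day castrates and from 14746 to 16641 in sham mice. In this list Lum, Dcn, Dpt and Fbln1 also stand among the fibril-associated genes, and Vim, Fap, Prrx1 and Twist1 did not pass the filter. Of 8 smooth muscle markers, 6 were higher and 0 lower with testosterone (median 0.66), and 1 was higher and 5 lower in 14-day castrates than in sham mice (median -0.52). Compared with sham mice, testosterone-treated mice had 3 of these markers higher and 0 lower (median 0.22). Their summed signal ran from 44089 to 49309 in testosterone-treated mice, from 20985 to 27094 in 14-day castrates, from 24620.0 to 34075 in 3-day castrates and from 31687 to 39368 in sham mice. Actg2, an actin of smooth muscle, led the list with a log2 change of 2.93.

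Of 20 cell cycle genes tested, 8 passed the filter only through the testosterone-treated arrays, so that their rise was bound up with their selection. Mki67 (log2 change 5.11), Top2a (4.43), Cdk1 (4.34) and Birc5 (3.74) were among these 8. The other 12 all rose with testosterone, and in 14-day castrates against sham mice 6 of the 12 were higher and 0 lower. Endothelial and pericyte markers (5 of 7 tested), macrophage markers (9 of 10), adipocyte markers (5 of 6) and nerve markers (6 of 6) were lower with testosterone, with 0 higher in each list. In 14-day castrates against sham mice 5, 10, 4 and 6 of these were higher, with 0 lower. Cldn5, Aif1, Retn, Prph and Snap25 passed the filter only through the 14-day castrates, so their changes were bound up with their selection. Among the markers that did not depend on that group, 4 of 6, 8 of 9, 4 of 5 and 4 of 4 were lower with testosterone, in the same order of lists. Of 11 luminal epithelial markers 3 were higher and 4 lower with testosterone, of 2 basal markers 0 and 1, and of 14 skeletal muscle markers 1 and 0. The summed skeletal muscle signal varied widely, from 12537 to 38978 in testosterone-treated mice and 4050 to 37429 in 14-day castrates. It was 2641 to 6177 in 3-day castrates and 4734 to 23551 in sham mice. Of the 14, 9 were higher at 14 than at 3 days (21.4% of all genes). Ckm and Tnni2 passed the filter only through the 14-day castrates. The source of this signal was not tested.

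The 9 profiles resembled each other mainly through the group differences. Over the 20 arrays the 36 pairs of genes had a median Pearson r of 0.720 (0.434 to 0.951), and with the group means taken out the median was 0.396 (-0.236 to 0.738). The arrays of a group share their treatment, so these values describe likeness only. The gene outside the set whose log2 profile was most like the mean standardised profile of the 9 was Eln, which encodes elastin, the protein of elastic fibres (r = 0.942 over 20 arrays). Eln averaged 1367 ± 370.1 in testosterone-treated mice, 461 ± 17.3 in 14-day castrates, 777 ± 203 in 3-day castrates and 531 ± 220.4 in sham mice. The next most alike were Chek1 (r = 0.892), Kif11 (0.886), Cdc6 (0.884), Pclaf (0.883), Srpx (0.881), Col4a2 (0.881), Prc1 (0.878), Rrm1 (0.873) and Ccnb2 (0.871). Kif11, Cdc6, Pclaf and Prc1 averaged well below the filter signal in every group but the testosterone-treated mice. They passed the filter through those arrays, so their likeness was bound up with their selection. Chek1 also averaged below the filter signal in the other groups, and whether it passed only through the testosterone-treated arrays was not tested.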

How the data were processed

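Whole-prostate RNA from 20 mice in 4 groups was measured on 1 Affymetrix array per mouse. The deposited values are intensities, 1 linear signal per probe set, computed with MAS5 version 5.0 per the submitters' processing notes. No counts underlie them, so the number of arrays limits the precision. From the signals, log2(signal + 12.7) was computed, 12.7 being the 10th percentile, with no further normalization. Of 12422 probe sets that are not controls, 6913 (55.7%) exceeded 190.8 on at least 5 arrays and were tested. All 4 groups entered 1 model in limma 3.58.1 (R 4.3.3; lmFit, contrasts.fit, eBayes), two-sided, with Benjamini-Hochberg adjustment over all probe sets of each of 7 contrasts. Changes are in log2 with the model's SE, folds are 2 to that power, and signals are mean ± SD. Chain ratios used exact permutation tests (scipy 1.17.1). Gene symbols came from the array's platform annotation, and gene coordinates and promoters from RefSeq (GRCm38.p6). Of 16 gene lists, 7 are pathways and 9 are cell type markers; of each pathway list, up to 4 genes with the largest called change in each comparison are named, besides genes that move against their list, which were chosen after their values were seen. The 10 most alike genes were taken by Pearson correlation. The members and lists were chosen with earlier results of these data known. In simulated data for testosterone against 14-day castration, added log2 changes of 0.5, 1 and 2 were called for 52.2%, 89.6% and 98.5% of the altered probe sets, among 6913. For the regrowth change minus the 14-day regression change these shares were 4.48%, 53.7% and 92.4%. Against the 3-day regression change they were 11.9%, 67.2% and 90.9%. Each simulation altered far fewer probe sets than were called in the data, so these shares do not carry over directly. Alternatives were other pseudocounts and filters, centring, quantile normalization, array weights, the mean of a gene's probe sets, a fit of only the groups compared, leaving out each array, and leaving out the 4 arrays of high Gapdh ratio.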

Additional observations from a re-analysis of the deposited data

Results flagged for a closer look

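In 6 of 36 sets of 5 arrays, 1 for each gene and group, a single array stood far from the other 4 by Dixon's test at the 95% level, which chance gives in about 1 of 20. Sham replicate 1 did so for Col1a1 (2010.5), Col3a1 (1073.6) and Col15a1 (613.2), each time as the highest sham array. Others were 14-day castrate replicate 5 for Col3a1 (2034.5), 3-day castrate replicate 2 for Col3a1 (1948) and 3-day castrate replicate 5 for Col6a2 (1411). Because the 3 sham values belong to 1 array, they are not separate events.

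The effect of castration against the same sham mice differed between 14 and 3 days for 3 genes, by a log2 of -1.41 for Col1a1, -0.71 for Col6a2 and -0.62 for Col5a2 in limma, each lower at 14 days.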

How the results depend on the processing

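Over 30 alternative settings, the count of collagen genes higher with testosterone than in 14-day castrates stayed between 6 and 9, with 0 lower. Leaving out 1 array at a time, it was 8 to 9, and the count was 3 to 4 for 14-day castrates against sham mice, 4 to 6 for 3-day castrates against sham mice, 3 to 3 lower for 14 against 3 days, and 8 to 8 for testosterone against sham mice. Likewise 4 to 7 genes rose more in regrowth than over 14 days of regression and 3 to 5 more than over its first 3 days, with 5 without castrated 3-day replicate 5. That last count was 6 with centred arrays and 5 with quantile normalization. Taking the mean of all probe sets of a gene gave 5 genes lower at 14 than at 3 days and 1 gene, Col6a1, that rose less in regrowth (-0.61, adjusted p = 0.0456) than in 14 days of regression. Without the 4 arrays of high Gapdh ratio, 3 genes rose more in regrowth than in 14 days of regression, and 0 of the 12 chain ratios passed, where 3 against 3 arrays cannot pass and 3 against 5 leave few permutations. With centred arrays 9 of 9 genes were higher with testosterone, Col6a1 included (0.49, adjusted p = 0.0047). Uncalled changes that took the other sign were Col6a3 at 14 days against sham (0.28 with array weights, 0.32 without the 4 arrays, and -0.31 to 0.074 without 1 array), Col5a1 at 3 days against sham (-0.012 with quantile normalization, -0.00068 with array weights and -0.015 to 0.10 without 1 array), Col6a1 at 14 against 3 days (-0.012 with centred arrays and -0.078 to 0.10 without 1 array) and Col15a1 there (-0.20 to 0.15 without 1 array, the highest without castrated 3-day replicate 5). With centred arrays the regrowth difference of Col6a1 was 0.10 against 14 days of regression and 0.092 against 3 days. The causes were not tested. The settings for the gene lists were chosen after seeing the data. No paired analysis was possible because the labels give no replicate numbers that groups share.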
